A study of Homo sapiens with 4 samples.

Results

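The genes described here are 10 members of the aldehyde dehydrogenase (ALDH) superfamily, taken by name from the 34826 genes of a deposited expression table: ALDH1A3, ALDH1A1, ALDH1B1, ALDH2, ALDH3A1, ALDH3A2, ALDH3B1, ALDH5A1, ALDH7A1 and ALDH9A1. ALDH1A3 was noted for its higher value in both treated libraries, so its difference between the groups is given as a description with no test. The cells were the line HCT116-Ki-67-mAC-AID, derived from the human colorectal cancer line HCT116, whose Ki-67, found in nuclei of dividing cells, carries a degron tag in both groups. The control group was 2 libraries of untreated cells, and the IAA group was 2 libraries of cells given 0.5 mM indole acetic acid (IAA) for 24 h, an auxin that triggers destruction of the tagged protein. Treated cells lacking the tag were not analysed here, and an effect of IAA therefore cannot be told apart from one of Ki-67 loss. The labels call the libraries biological replicate samples, each from 3 dishes, without saying whether the cultures were set up on different days, so the spread between them may be partly technical.

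Aldehyde dehydrogenases oxidise aldehydes to carboxylic acids with NAD or NADP as the electron acceptor, and a conserved cysteine in the active site forms the bond to the aldehyde. Members of the ALDH1A group turn retinal into retinoic acid, the ligand of the nuclear retinoic acid receptors, and are often used to mark stem-like cells in epithelia and carcinomas. Other members clear acetaldehyde and the aldehydes of lipid peroxidation, or act in single steps of amino acid, lipid or carnitine metabolism.

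RNA was selected on oligo-dT beads, and the table gives TPM, that is reads divided by gene length and scaled to 1000000 per library. TPM multiplied by gene length fell on whole multiples of a single step in each library, which returned 38733981 to 49448043 counted reads per library. In such bulk samples, fewer cells of a type and less RNA per cell cannot be told apart. The epithelial genes EPCAM, CDH1, KRT8, KRT18, KRT19 and CDX2 were present at 11.9 TPM or more in each library, whereas VIL1, CDX1, CEACAM5, LGR5 and ASCL2 reached at most 0.255 TPM. Blood markers summed to at most 1.02 TPM, endothelial markers to at most 0.703 TPM and fibroblast markers to 13.9 to 15.3 TPM, with the groups overlapping for fibroblast markers. Nearly all of the fibroblast sum was COL1A1 (13.3 to 14.8 TPM), and the other fibroblast markers reached at most 0.692 TPM in any library. Hepatocyte markers, mostly SERPINA1, summed to 5.38 and 5.30 TPM without IAA and 7.30 and 6.42 TPM with it, and their part in the results was not tested. IAA replicate 1 stood apart by the sum of 8 markers of squamous epithelium, 24.6 TPM there and 3.72 to 4.77 TPM in the other 3 libraries. Most of that sum was S100A9 (15.5 TPM, against 0.676 to 1.79 TPM) and KRT13 (6.73 TPM, against 2.19 to 2.36 TPM). The other markers of this list reached at most 0.883 TPM in any library. IAA replicate 1 also had the fewest genes with 1 read, 1787 against 2776 to 2931. The libraries did not group by treatment over all genes: chi-square per gene was lowest between control replicate 2 and IAA replicate 2 (5.75), 8.12 between the controls and highest between the IAA libraries (15.8). MKI67, the tagged gene, had 198 and 151 TPM without IAA and 174 and 149 TPM with it, and its mRNA does not check removal of the protein.

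ALDH1A3 makes retinoic acid from retinal and was the most abundant of the 10 genes in each library. The gene (ENSG00000184254.16) lies on GRCh38 chromosome 15, 100877714 to 100916626, plus strand. ALDH1A3 stood at 198 and 194 TPM in control replicates 1 and 2, against 316 and 289 TPM in IAA replicates 1 and 2. Both IAA libraries lay above both controls, and the gap between the groups was wider than the gap within either. Counting error was small beside that gap, with 13376 and 17362 reads behind the control values and 21675 and 21350 behind the IAA values. The exact 95% Poisson intervals, which cover counting error only, ran from 191 to 201 TPM across the controls and from 285 to 320.3 TPM across the IAA libraries. Averaged by group, ALDH1A3 was at 196 ± 2.63 TPM without IAA and 302 ± 19.5 TPM with it (SD, n = 2 each), and the ratio of these means was 1.54. On the log2(TPM + 1) scale the difference was 0.62 with a standard error of 0.08. It was 0.56 without IAA replicate 1, the library high in S100A9 and KRT13, and 0.69 without IAA replicate 2. The level filter, 1 TPM or more in 2 or more libraries, kept 17896 genes, of which 325 (1.82%) had a difference at least as large as that of ALDH1A3. Among the 6679 genes that averaged 20 TPM or more, a cut that was not planned, 8 did, ALDH1A3 included. ALDH1A3 was chosen for these same values, so its place in either count is a description and lends no support.

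**Figure D1:**
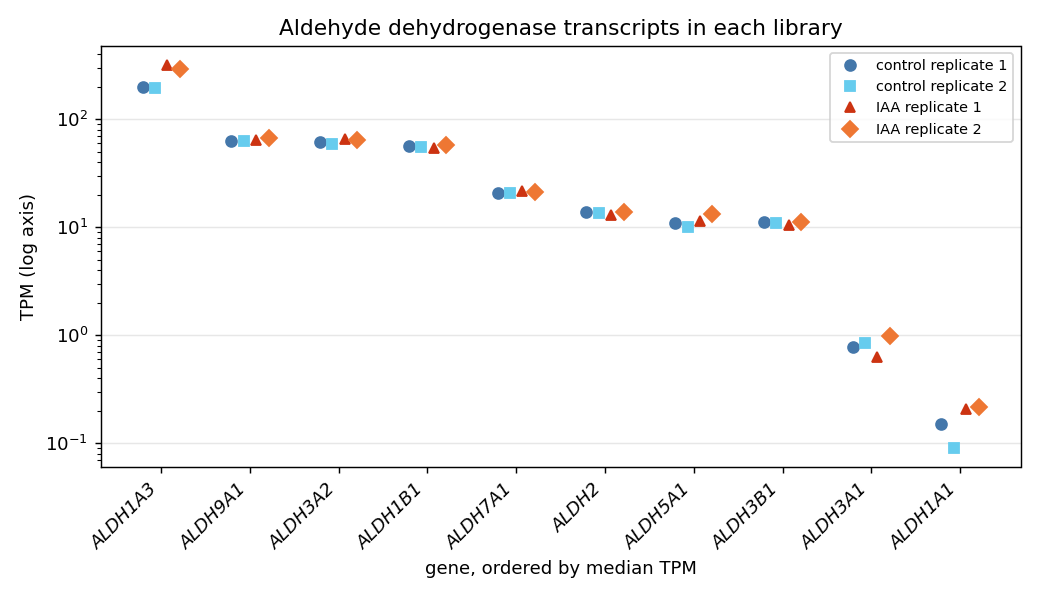
TPM of the 10 aldehyde dehydrogenase genes (log axis) in each of the 4 libraries, 1 point per library, with genes ordered by median. ALDH1A3 is at 194 to 198 TPM in the controls and 289 to 316 TPM in the IAA libraries, while ALDH3A1 and ALDH1A1 stay under 1 TPM in each library.

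The same values gave ALDH1A3 a larger share of the summed ALDH TPM in the IAA libraries. Over 19 ALDH superfamily genes it made up 34.2% and 34.7% of the summed TPM without IAA, against 45.8% and 43.0% in IAA replicates 1 and 2. The other 18 genes together stayed at 379 and 365 TPM without IAA and 374 and 383 TPM with it, so their ranges overlapped. By rank among all genes of the table, ALDH1A3 held places 575 and 573 without IAA, against 316 and 363 with it. Share and rank restate the values that chose ALDH1A3 and are no separate finding.

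The other ALDH1A genes were close to undetected. ALDH1A1 (ENSG00000165092.12, chromosome 9, 72900662 to 73080442, minus strand), a common stem cell marker in epithelia, stood at 0.150 and 0.0905 TPM in untreated cells, against 0.207 and 0.219 TPM after IAA. Those values rest on 5, 4, 7 and 8 reads, and although both IAA values lie above both controls, the 4 Poisson intervals overlap, from 0.0247 to 0.349 TPM across the controls and from 0.0832 to 0.432 TPM across the IAA libraries. A difference between the groups was therefore not detectable at this depth. ALDH1A2, the third retinal dehydrogenase of the group and not among the 10, had 0.455 and 0.374 TPM without IAA and 0.683 and 0.389 TPM with it. Both genes missed the filter on low values and were not tested.

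The 250 bases before the annotated start are shown for 3 members whose RNA levels differ: ALDH1A3, the most abundant, ALDH1A1, its near-silent relative, and ALDH5A1, which had the next largest difference in log2(TPM + 1) among the tested members. The windows come from RefSeq on GRCh38.p14, at chr15:100879581-100879830 (plus strand), chr9:72953054-72953303 (minus strand) and chr6:24494719-24494968 (plus strand), each written 5′ to 3′ and ending at the base before the RefSeq start, which need not be the outermost start of the gene spans given above. Capitals mark matches on either strand to GCGTG (the core bound by the aryl hydrocarbon receptor with its partner ARNT), CCAAT (the CCAAT box), GGGCGG (the GC box), TATAAA (the TATA box) and AGGTCA (a nuclear receptor half-site), and matches to one motif may share a base.
ALDH1A3: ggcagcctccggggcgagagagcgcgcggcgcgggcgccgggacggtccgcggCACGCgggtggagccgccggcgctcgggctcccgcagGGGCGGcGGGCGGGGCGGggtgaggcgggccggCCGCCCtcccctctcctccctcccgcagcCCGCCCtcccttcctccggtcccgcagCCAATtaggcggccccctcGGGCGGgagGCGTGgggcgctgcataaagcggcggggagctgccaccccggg
ALDH1A1: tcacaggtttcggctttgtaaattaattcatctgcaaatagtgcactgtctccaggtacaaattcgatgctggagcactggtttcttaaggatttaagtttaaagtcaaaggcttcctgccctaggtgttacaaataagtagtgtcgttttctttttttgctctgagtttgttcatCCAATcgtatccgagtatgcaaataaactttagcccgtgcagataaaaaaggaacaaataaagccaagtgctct
ALDH5A1: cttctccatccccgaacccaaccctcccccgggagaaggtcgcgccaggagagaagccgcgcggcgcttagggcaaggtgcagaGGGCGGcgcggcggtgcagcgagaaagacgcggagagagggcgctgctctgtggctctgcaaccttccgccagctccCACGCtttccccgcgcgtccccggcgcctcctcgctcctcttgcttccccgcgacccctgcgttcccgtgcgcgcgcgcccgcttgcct

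The ALDH1A3 window is 82.4% G and C with 38 CpG pairs, the ALDH5A1 window 72% with 33, and the ALDH1A1 window 38.4% with 6, against medians of 58% and 11 over 35116 windows in the same RefSeq table. The ALDH1A3 window holds 6 GC boxes, 1 CCAAT and 2 GCGTG cores, which begin 197 and 43 bases before the start (positions -197 and -43). The ALDH1A1 window holds 1 CCAAT and the ALDH5A1 window 1 GC box and 1 GCGTG. These short words are common: GCGTG was found in 32.2% of all windows, CCAAT in 32.0%, GGGCGG in 42.6%, TATAAA in 10.7% and AGGTCA in 12.1%. Windows were matched for 8 of the 10 members, of which 3 hold GCGTG, 5 CCAAT, 7 GGGCGG and 0 TATAAA or AGGTCA. ALDH3A2 and ALDH3B1 have 2 windows each. A member was counted if any of its windows held the motif, whereas the shares above are per window, so the counts and shares are not like for like. No window was matched for ALDH2 or ALDH3A1.

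Genes on the other strand overlap ALDH1A3 and ALDH5A1, and the sources used here do not state whether strand was used in counting. AC015712.2 (ENSG00000259583.2, antisense, chromosome 15, 100892859 to 100919283, minus strand) shares 1585 of its 6792 exon bases with exons of ALDH1A3. It stood at 3.97 and 4.25 TPM in untreated cells, against 9.26 and 4.95 TPM after IAA. Both IAA libraries were above both controls, with replicate 2 close to them and replicate 1 far above. The difference was 0.61 with a standard error of 0.26 (limma adjusted p = 0.999), and it was 0.22 without IAA replicate 1. AC015712.2 had 316 to 747 reads per library and ALDH1A3 13376 to 21675. Without strand, reads of the shared stretch cannot be told apart, and their part in the ALDH1A3 values was not tested. GPLD1, which encodes a phospholipase that releases GPI-anchored proteins (ENSG00000112293.14, chromosome 6, 24424565 to 24495205, minus strand), shares 239 exon bases with ALDH5A1 at their opposed first exons. Its values of 3.10 and 2.75 TPM without IAA and 3.70 and 2.92 TPM with it overlapped between the groups. The snoRNA row RF00322, inside ALDH3A2, never exceeded 5 reads, at 3.75 and 3.54 TPM without IAA and 0 and 1.71 TPM with it.

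**Figure D2:**
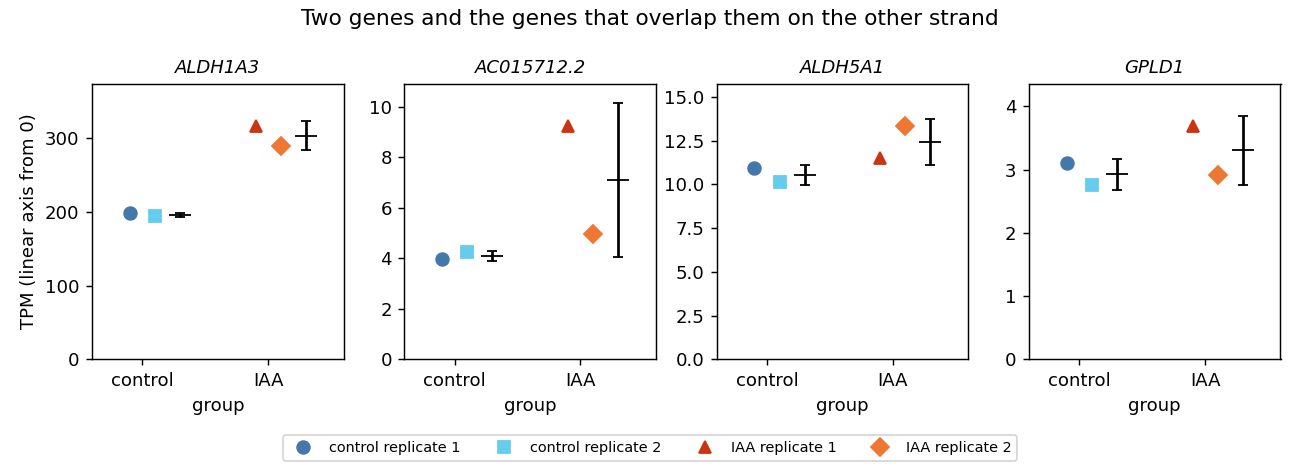
TPM (linear axes from 0) of ALDH1A3 and ALDH5A1 and of the gene that overlaps each on the other strand, 1 point per library, with the group mean ± SD (n = 2) beside the points. ALDH1A3 is high in both IAA libraries, while AC015712.2 is high in IAA replicate 1 (9.26 TPM) and near the controls in IAA replicate 2 (4.95 TPM).

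Of the mitochondrial members, ALDH5A1 had the largest difference in log2(TPM + 1), and none passed the test. ALDH5A1, succinate semialdehyde dehydrogenase of the GABA pathway (ENSG00000112294.12, chromosome 6, 24494852 to 24537207, plus strand), had 10.9 and 10.1 TPM without IAA and 11.5 and 13.4 TPM with it. Both IAA libraries lay above both controls, with replicate 1 close to the controls and replicate 2 well above them. The means were 10.5 ± 0.57 and 12.4 ± 1.31 TPM (SD, n = 2), and the log2 difference of 0.22 had a 95% interval from -0.07 to 0.51 (limma adjusted p = 0.999). That difference was 0.12 without IAA replicate 2 and 0.32 without IAA replicate 1. ALDH2, the main enzyme for acetaldehyde from ethanol (ENSG00000111275.12, chromosome 12, 111766887 to 111817529, plus strand), stood at 13.9 and 13.6 TPM in untreated cells, against 12.9 and 13.9 TPM after IAA. Those groups overlap, and the log2 difference was -0.04 with an interval from -0.28 to 0.21 (limma adjusted p = 0.999). ALDH1B1, an acetaldehyde and retinal dehydrogenase of mitochondria (ENSG00000137124.7, chromosome 9, 38392664 to 38398661, plus strand), had 56.8 and 55.7 TPM without IAA and 54.3 and 57.7 TPM with it. The IAA libraries enclosed both controls, and the interval of its log2 difference ran from -0.20 to 0.18 (limma adjusted p = 0.999).

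Members that act on fatty and aromatic aldehydes differed widely in level and little between the groups. ALDH3A2, the fatty aldehyde dehydrogenase of the endoplasmic reticulum that is mutated in Sjögren-Larsson syndrome (ENSG00000072210.18, chromosome 17, 19648136 to 19677598, plus strand), stood at 61.8 and 59.4 TPM in untreated cells, against 65.3 and 63.4 TPM after IAA. Both IAA values were above both controls, by less than the gap between the controls in the case of replicate 2, and the log2 difference was 0.08 with an interval from -0.10 to 0.27 (limma adjusted p = 0.999). ALDH3A1, a cytosolic enzyme abundant in cornea and a classical target of the aryl hydrocarbon receptor (ENSG00000108602.17, chromosome 17, 19737984 to 19748943, minus strand), stayed low at 0.784 and 0.839 TPM without IAA and 0.623 and 0.975 TPM with it. The values rest on 36, 51, 29 and 49 reads, the IAA libraries lie on either side of the controls, and the gene missed the filter. ALDH3B1, a membrane-bound enzyme for lipid-derived aldehydes (ENSG00000006534.15, chromosome 11, 68008578 to 68029282, plus strand), had 11.12 and 11.03 TPM without IAA and 10.5 and 11.2 TPM with it. The groups overlap, and the interval of its log2 difference ran from -0.28 to 0.23 (limma adjusted p = 0.999).

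The remaining members, of lysine and carnitine metabolism, were slightly higher in both IAA libraries without passing the test. ALDH7A1, or antiquitin, which acts in lysine breakdown (ENSG00000164904.17, chromosome 5, 126531200 to 126595418, minus strand), stood at 20.9 and 20.7 TPM in untreated cells, against 21.7 and 21.3 TPM after IAA. Its log2 difference was 0.05 with an interval from -0.17 to 0.26 (limma adjusted p = 0.999). ALDH9A1, which oxidises an aldehyde intermediate of carnitine synthesis (ENSG00000143149.12, chromosome 1, 165662216 to 165698863, minus strand), had 62.79 and 62.82 TPM without IAA and 64.1 and 66.4 TPM with it. Its log2 difference was 0.05 with an interval from -0.13 to 0.23 (limma adjusted p = 0.999).

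Read together, 8 of the 10 members passed the level filter, and ALDH1A1 and ALDH3A1 did not. Limma on log2(TPM + 1), adjusted by Benjamini-Hochberg over all 17896 genes tested, called 0 genes higher and 0 lower (0% in each direction), with 275 higher and 467 lower at an unadjusted p under 0.05. None of the 7 tested members other than ALDH1A3 had an unadjusted p under 0.05, and limma voom on the recovered reads, which called 1 gene of 18965 higher (0.00527%) and 0 lower, called none of these 7. Both IAA libraries were above both controls for 6 members (ALDH1A3, ALDH1A1, ALDH3A2, ALDH5A1, ALDH7A1 and ALDH9A1), against 11.8% of all genes tested, and below both for 0, against 17.7%. ALDH1A1 was not tested, and among the 8 tested members 5 were above both controls. The members were chosen with this comparison known, and nothing is read from these counts. In a count added after seeing the data, with IAA replicate 1 left out, IAA replicate 2 was above both controls for 9 members and for 24.4% of genes tested, and below both for 0 members and for 42.8%. Those 9 include ALDH1A3 and the untested ALDH1A1 and ALDH3A1, and nothing is read from this count either. The median log2 difference of the 8 tested members was 0.05, beside -0.02 over all genes tested. ALDH1A3, chosen for its difference, is among these 8, and nothing is read from the median.

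**Figure D3:**
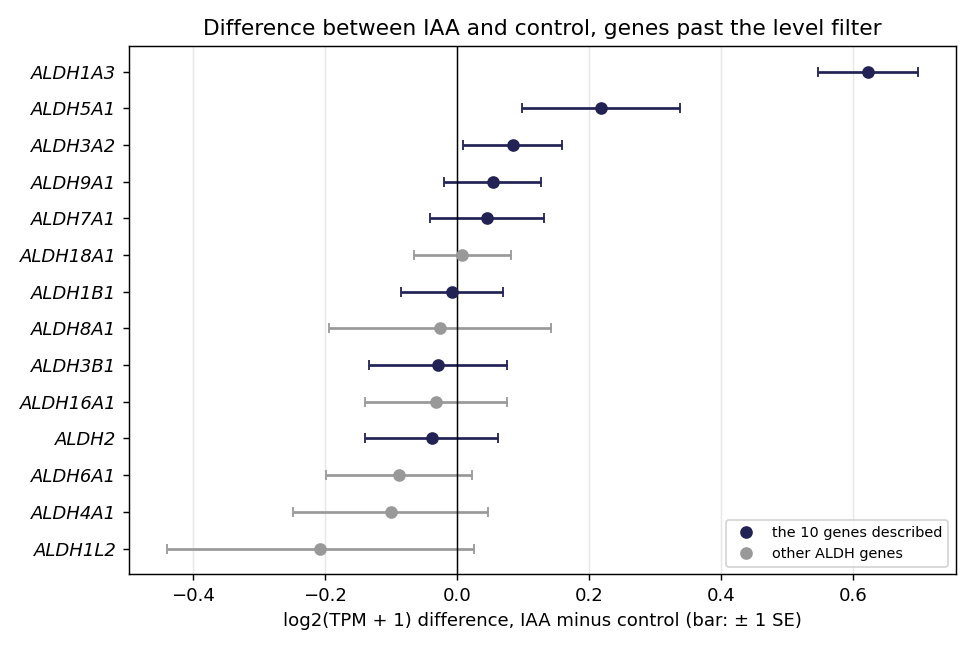
Difference in log2(TPM + 1), IAA minus control, for the 14 ALDH superfamily genes past the level filter, with bars of ± 1 standard error from the limma fit (2 libraries per group). ALDH1A3 is at 0.62 and ALDH5A1 at 0.22, and the other 12 genes lie between -0.21 and 0.08.

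By level, the members fell into an order that was largely the same in each library, with 43 of 45 pairs ordered alike in all 4. In TPM, ALDH1A3 (median 243 over the 4 libraries) was followed by ALDH9A1 (63.5), ALDH3A2 (62.6), ALDH1B1 (56.3), ALDH7A1 (21.1), ALDH2 (13.7), ALDH5A1 (11.2), ALDH3B1 (11.1), ALDH3A1 (0.811) and ALDH1A1 (0.178). The ranges over the 4 libraries overlapped between ALDH9A1 and ALDH3A2 and between ALDH5A1 and ALDH3B1, and the order within each of these pairs changed between libraries. The ranges of ALDH2 and ALDH5A1 also overlapped, although ALDH2 was the higher in each library. The other neighbours in the order had separate ranges. ALDH9A1, ALDH3A2, ALDH1B1, ALDH7A1, ALDH2 and ALDH3B1 varied little over all 4 libraries, with a coefficient of variation between 2.11% for ALDH7A1 and 3.99% for ALDH3A2, whereas ALDH5A1 had 11.99% and ALDH1A3 25.1%. The median was 6.61% over tested genes whose mean lay between 10 and 400 TPM. This coefficient takes both groups together, so that of ALDH1A3 restates the difference that chose the gene and is no separate finding.

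Part of that order depends on the gene length used. The deposited length equals the union of all annotated exons for all 34826 genes, and for ALDH7A1 this is 17970 bases, 3.62 times the 4964 bases of its principal transcript. Per length of the principal transcript, ALDH7A1 moved from 21.1 to 76.3, next to ALDH9A1 at 77.9 and above ALDH1B1 at 57.9, on the scale of the deposited TPM. ALDH3A2 then stood above ALDH9A1, at 103 (range 97.6 to 107) against 77.9 (range 77.0 to 81.5). ALDH5A1 rose to 27.3 and ALDH3B1 to 26.3, both above ALDH2 at 13.95, whose union and principal lengths are nearly equal. ALDH1A3 remained first at 358 and ALDH3A1 and ALDH1A1 last. The order changed for 4 of 45 pairs, and the ratio of TPM between IAA and control within a gene does not depend on the length.

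**Figure D4:**
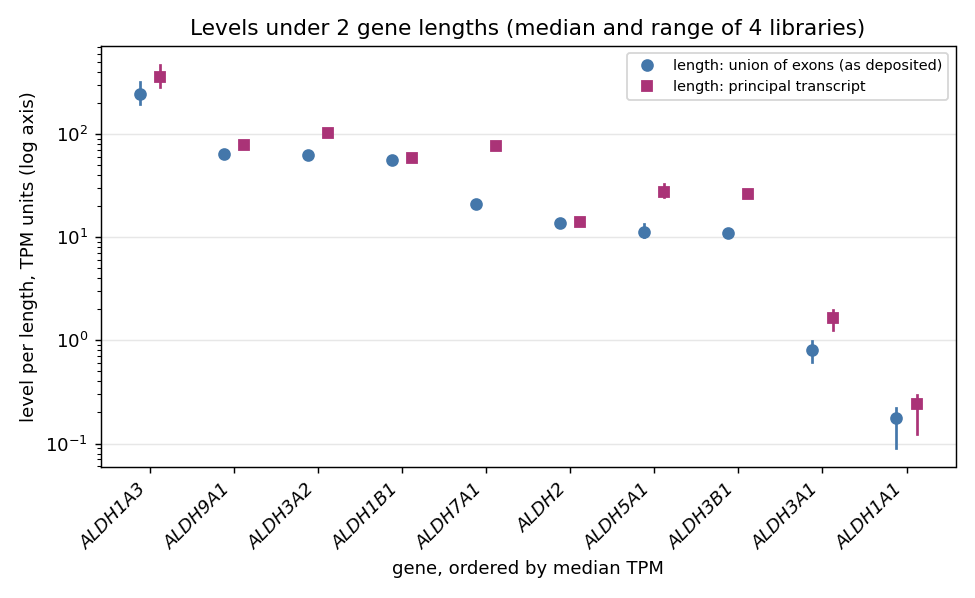
Level per length of each member (log axis, TPM units; median as a point and the range of 4 libraries as a line) with the deposited length, the union of exons, and with the length of the principal transcript. ALDH7A1 moves from 21.1 to 76.3 and passes ALDH1B1, and ALDH1A3 stays first under both lengths.

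None of the other 9 genes of the superfamily passed the test. Of these, 6 were tested and 0 were called by limma, voom or at an unadjusted p under 0.05, with 1 positive and 5 negative differences and a median of -0.06. ALDH18A1, which makes the proline precursor pyrroline carboxylate, was the most abundant of them at 88.5 and 83.9 TPM without IAA and 87.6 and 85.7 TPM with it. ALDH1L2, the mitochondrial formyltetrahydrofolate dehydrogenase, had the lowest difference, -0.21 with a standard error of 0.23, at 1.82 and 1.38 TPM without IAA and 1.24 and 1.26 TPM with it, and was the single gene of the 9 with both IAA libraries below both controls. That difference was -0.083 without control replicate 1, -0.33 without control replicate 2 and -0.33 with a pseudocount of 0.1. ALDH4A1, of proline breakdown, had 12.2 and 11.3 against 9.51 and 12.5 TPM, so the IAA libraries enclosed the controls. ALDH8A1 had 3.42 and 2.90 against 3.11 and 3.05 TPM. A processed pseudogene, ALDH7A1P1, can share reads with ALDH7A1 and had at most 0.439 TPM.

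Genes that make, carry and sense retinoids around ALDH1A3 did not pass the test. Of 22 retinoid metabolism genes, 21 matched and 11 were tested, with 6 positive and 5 negative differences, a median of 0.01 and 0 called (limma and voom; 1 at an unadjusted p under 0.05). That gene was DHRS3, a retinal reductase that counters retinoic acid synthesis, at 51.99 and 52.00 TPM without IAA and 60.4 and 63.6 TPM with it. Both IAA libraries were above the nearly equal controls, and the log2 difference was 0.25 with a standard error of 0.08 (limma adjusted p = 0.999). DHRS4, another short-chain reductase of retinal, followed with 24.0 and 21.6 against 24.4 and 24.7 TPM. RDH5 and RDH10, both retinol dehydrogenases, had the lowest differences, -0.19 with a standard error of 0.27 and -0.08 with a standard error of 0.11. With single libraries left out, RDH5 ran from -0.36 (without IAA replicate 1) to -0.016 (without IAA replicate 2) and RDH10 from -0.15 (without IAA replicate 2) to -0.0045 (without IAA replicate 1). A pseudocount of 0.1 gave RDH5 -0.34.

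The tested receptors and binding proteins had small negative differences, none of which passed the test. All 8 tested genes of 12 matched were negative, with a median of -0.11 and 0 called by limma, voom or at an unadjusted p under 0.05, where 9937 of 17896 genes tested were negative. They stayed negative under pseudocount, filter, scaling and voom alternatives, but 2 of 8 turned positive without IAA replicate 1 and 1 of 8 without control replicate 1. RARA, a retinoic acid receptor, stood at 25.7 and 24.3 TPM in untreated cells, against 22.1 and 22.0 TPM after IAA. PPARD, a receptor that FABP5 can supply with retinoic acid, had 51.9 and 45.5 against 40.7 and 44.0 TPM. CRABP2, which carries retinoic acid to its receptors, was abundant at 848 and 899 TPM without IAA and 772 and 895 TPM with it, and FABP5 had 232 and 225 against 217 and 226 TPM. RARB, RXRG, RBP4 and CRABP1 had 0 reads in all 4 libraries.

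Among retinoic acid target genes, 14 of 16 matched and 7 were tested, with 4 positive and 3 negative differences and 0 called by limma or voom. The 1 gene at an unadjusted p under 0.05 was again DHRS3. TGM2, a transglutaminase induced by retinoic acid, had 14.04 and 12.6 TPM without IAA and 14.9 and 16.5 TPM with it, a log2 difference of 0.23 with a standard error of 0.11. CYP26A1, a retinoic acid hydroxylase induced by its own substrate, had 0.402 and 0.260 TPM without IAA and 0.425 and 0.131 TPM with it, and RARB was at 0 as above. RAI1 had 36.6 and 30.5 against 29.4 and 31.1 TPM, and CRABP2 is given above.

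ALDH3A1 and targets of the aryl hydrocarbon receptor can be set side by side. CYP1A1, the cytochrome P450 that marks receptor activity, stood at 3.08 and 1.63 TPM in untreated cells, against 3.70 and 4.27 TPM after IAA, and TIPARP had 29.7 and 27.2 against 42.6 and 36.9 TPM, while ALDH3A1 had IAA values on either side of its controls. NQO1, a quinone reductase, had 363 and 371 against 441 and 447 TPM, AHRR, the repressor of the receptor, 4.38 and 3.25 against 6.21 and 6.22 TPM, and CYP1B1 2.91 and 2.68 against 3.32 and 3.83 TPM. Both IAA libraries were above both controls for 5 of these 5 genes, beside 2108 of 17896 genes tested (11.8%). Limma and voom called 0 of them, with 3 at an unadjusted p under 0.05 by limma, beside 742 of 17896. The list was chosen with earlier results of these data known, and nothing is read from these counts.

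The genes whose pattern over the 4 libraries was most like that of ALDH1A3 were found by Euclidean distance between centred log2(TPM + 1) values, among 11132 named genes averaging 5 TPM or more. With distances of 0.168 to 0.202, they were RNA5SP383, RPL22P2, TIPARP, RGS2 and FLRT3. RNA5SP383 and RPL22P2 are pseudogenes of 5S rRNA and of a ribosomal protein, can share reads with their parents, and rest on 10 to 20 and 25 to 46 reads per library. TIPARP, an ADP-ribosyltransferase that restrains the aryl hydrocarbon receptor, is given above. RGS2, a regulator of G protein signalling, had 38.0 and 38.6 TPM without IAA and 53.8 and 50.6 TPM with it. FLRT3, a membrane protein of cell adhesion and FGF signalling, had 4.27 and 3.99 against 6.39 and 5.46 TPM. The likeness rests on 4 libraries. These genes were chosen for closeness to ALDH1A3, so sharing its higher value in IAA replicate 1 than in IAA replicate 2 is no separate finding. In RPL22P2 that margin was small, 9.68 against 9.59 TPM.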

How the data were processed

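RNA-seq of 2 control and 2 IAA libraries was analysed from a single table. The authors deposited TPM values per gene, 1 column per library. Per the submitters' processing notes, featureCounts 1.5.2, DESeq2 1.20.0, hg38 and GRCh38.p12 were used, without the role of each, with no aligner or strand setting given in the sources used here. The 34826 identifiers and start positions all matched GENCODE release 29, whose coordinates are printed because 7172 ends differed. Reads were recovered as TPM times length over the smallest step (whole within 1e-06 for 100% of genes). Limma 3.58.1 in R 4.3.3 (lmFit, eBayes with a trend) was fitted to log2(TPM + 1) of the 17896 genes that reached 1 TPM in 2 or more libraries, with 2 residual degrees of freedom, Benjamini-Hochberg adjustment and a threshold of 0.05. A pseudocount of 1 understates changes of low genes. An adjusted p of 0.999 is the value shared by most genes. The code was tested on simulated data. No pair of libraries agreed within sampling noise (chi-square per gene 5.75 to 15.8). Named genes were all members, the 2 highest and 2 lowest differences of each list, overlapping genes with at least 1 TPM the 5 nearest patterns, MKI67 and 5 targets of the aryl hydrocarbon receptor. ALDH1A2, CYP26A1, COL1A1, SERPINA1, S100A9, KRT13, ALDH7A1P1 and the genes at 0 were added after their values were seen. Members and lists were chosen with earlier results of these data known. Alternatives were other pseudocounts, filters, scaling, voom (at least 10 reads in at least 2 libraries), a replicate block and left-out libraries.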

Additional observations from a re-analysis of the deposited data

How the results depend on the processing

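The difference of ALDH1A3, whose sign the choice of the gene fixes, ran from 0.56 to 0.69 with libraries left out. The sign did not hold for members with differences near 0. ALDH1B1 became 0.0067 with median-of-ratios scaling and 0.0053 by voom, and with libraries left out ran from -0.050 to 0.036, ALDH2 from -0.089 to 0.013 and ALDH3B1 from -0.075 to 0.018. Among other genes, the range with libraries left out crossed 0 for CRABP2 (-0.18 to 0.036), ALDH4A1 (-0.28 to 0.079), ALDH8A1 (-0.12 to 0.065), ALDH18A1 (-0.030 to 0.047), GPLD1 (-0.0022 to 0.26) and MKI67 (-0.29 to 0.089). Genes called numbered 0 in each direction under every alternative with 4 libraries except voom, which called 1 higher gene. That gene was ALDH1A3, and since its values in this comparison chose it, the call is no test of it. With a library left out, 0 to 534 were called higher and 0 to 424 lower, with 534 and 424 when IAA replicate 2 was left out and 72 and 221 when IAA replicate 1 was. Those fits assume that the single remaining IAA sample varies as the controls do. With the replicate block 0 were called higher and 0 lower. Same-numbered libraries did not deviate together (r = -0.0693 across 17896 genes, which are not independent replicates). This value cannot show whether same-numbered samples were handled together, and the labels state no pairing. The order of member levels changed for 4 of 45 pairs in reads scaled by depth alone and for 4 with principal transcript lengths, an alternative chosen after seeing the data, as was the count without IAA replicate 1. Depth limits ALDH1A1, with 4 to 8 reads per library.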
